A study of Homo sapiens with 16 samples.

Results

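The 10 genes described here are the SNAI, TWIST and ZEB transcription factors SNAI1, SNAI2, TWIST1, TWIST2, ZEB1 and ZEB2, the cadherins CDH1 (E-cadherin) and CDH2 (N-cadherin), fibronectin (FN1) and vimentin (VIM). They were taken by symbol from a table of 59081 genes. The set was chosen because SNAI2 and FN1 differed in opposite directions with the compounds harmine and INDY, so the contrasts of treated cells with their own controls are given for these genes as a description and without a test. Poly(A) RNA was sequenced from U2OS, a human osteosarcoma cell line. All cultures were confluent, were held without serum for 48 h and received compound or vehicle for the last 24 h, so every control is a serum-starved, quiescent culture. Harmine, a plant beta-carboline alkaloid, was given as harmine hydrochloride at 10 µM against water, and INDY, a benzothiazole derivative, at 25 µM against DMSO. Both compounds inhibit the kinase DYRK1A. Each of the 4 groups had 4 libraries, no control library was shared between the compounds, and no source says whether replicate libraries are separate cultures, so the spread given may be technical.

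In epithelial tissue, E-cadherin holds neighbouring cells together at adherens junctions. During the epithelial-to-mesenchymal transition, factors of the SNAI, TWIST and ZEB families bind DNA at E-box sequences and repress epithelial genes, while cells gain N-cadherin, the intermediate filament protein vimentin and a matrix of fibronectin. Fibronectin is secreted as a dimer and is pulled into fibrils by integrins at the cell surface. Osteosarcoma cells are of mesenchymal origin.

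Libraries held 44301910 to 65889667 estimated counts, and levels are given as CPM, counts scaled to library size with TMM factors. Of the 10 genes, 8 had enough counts to enter the fit over 20446 genes. TWIST1 had 0 counts in all 16 libraries, which leaves room for at most 0.0447 to 0.0687 CPM, the value of 3 counts in a library. ZEB2 had 1 to 10 counts in each library and was not fitted. Water libraries 1 and 4 lay apart from water libraries 2 and 3 on the third principal component of all genes (4.81% of the variance), and INDY libraries 1 and 3 lay apart from INDY libraries 2 and 4 on the first and on the third. For each of the 8 fitted genes, the fold change of treated against control cells is also given without these 4 libraries. DMSO library 1, at -6.51 on the third component against -20.5 to -25.4 for the other DMSO libraries, was kept. The summed level of 8 osteoblast-lineage markers, led by COL1A1, was 226 to 234 CPM in water and 205 to 208 in harmine libraries, and 207 to 216 in DMSO and 146 to 160 in INDY libraries. These markers did not move together. RUNX2 rose with harmine from 33.1 to 49.5 CPM and fell with INDY from 31.5 to 21.8 CPM. ALPL fell with harmine from 21.0 to 16.5 CPM and with INDY from 18.3 to 3.77 CPM. SPP1 (osteopontin) rose with INDY from 1.84 to 2.88 CPM and fell with harmine from 2.26 to 1.28 CPM. SP7 and IBSP, both osteoblast genes, had no counts with INDY and averaged no more than 0.0243 CPM in any other group. Markers of endothelium summed to 10.2 to 15.2 CPM and those of blood to at most 2.57 CPM. In bulk RNA, fewer cells with a transcript and less of it in each cell cannot be told apart.

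**Figure D1:**
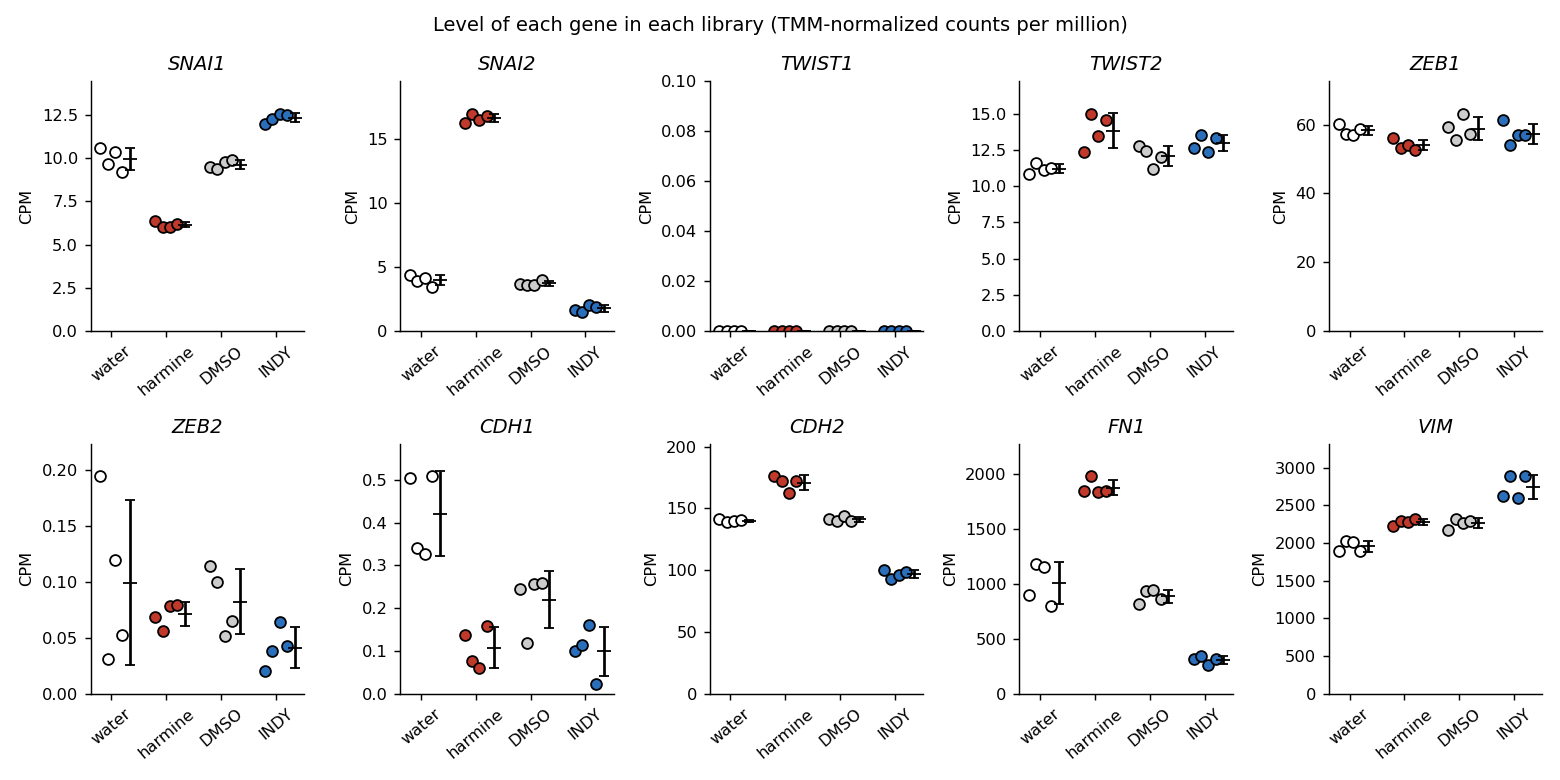
Level of each of the 10 genes in each library, in TMM-normalized CPM on a linear axis that starts at 0 and has its own scale for each gene. Circles are libraries and bars show the mean ± SD of the 4 libraries of a group. The harmine libraries of SNAI2 sit at 16.3 to 16.99 CPM and the INDY libraries at 1.47 to 2.06, on either side of both control groups.

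SNAI2, which encodes the zinc-finger repressor SLUG, was high with harmine and low with INDY. The gene (ENSG00000019549) spans chr8:48917598-48921740 of GRCh38 (minus strand) and has 3 exons. It measured 4.35, 3.91, 4.11 and 3.45 CPM in the water libraries and 16.3, 16.99, 16.5 and 16.8 CPM in the harmine libraries. With DMSO it measured 3.67, 3.62, 3.56 and 3.98 CPM, and with INDY 1.64, 1.47, 2.06 and 1.88 CPM. No treated library overlapped its own controls, and the treated libraries lay above them with harmine and below them with INDY. The means were 3.96 ± 0.382 CPM with water and 16.6 ± 0.323 with harmine, against 3.71 ± 0.188 with DMSO and 1.76 ± 0.258 with INDY (SD, n = 4). The fitted log2 fold change was 2.07 (SE 0.079), or 4.2-fold higher, with harmine and -1.07 (SE 0.095), or 2.09-fold lower, with INDY. Among all 20446 genes the harmine value ranked 122 from the top and the INDY value 2334 from the bottom. Each value rests on modest counts, 711 to 903 per harmine library and 78 to 128 per INDY library. Without the 4 libraries that lay apart, the log2 values were 2.05 and -1.15.

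SNAI1 (SNAIL), the closest relative of SNAI2 in the set, had the mirror pattern. It measured 10.6, 9.65, 10.3 and 9.22 CPM with water and only 6.34, 6.02, 6.02 and 6.19 with harmine. The DMSO libraries held 9.49, 9.35, 9.77 and 9.88 CPM and the INDY libraries 11.99, 12.3, 12.6 and 12.5. SNAI1 was 1.62-fold lower with harmine (log2 fold change -0.70, SE 0.053) and 1.28-fold higher with INDY (0.36, SE 0.050), with no overlap between treated and control libraries. Without the libraries set apart, the log2 values of SNAI1 were -0.70 and 0.37. The ratio of SNAI2 to SNAI1 counts was 0.397 ± 0.016 in water and 2.71 ± 0.106 in harmine libraries, and 0.385 ± 0.016 in DMSO and 0.143 ± 0.019 in INDY libraries (SD, n = 4). SNAI2 was the more abundant of the pair in the harmine libraries and the less abundant in the other 12.

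The remaining factors varied little. TWIST2, a basic helix-loop-helix repressor, was at 11.2 ± 0.317 CPM with water and 13.9 ± 1.19 with harmine, and at 12.1 ± 0.694 with DMSO and 13.0 ± 0.534 with INDY. Its harmine libraries all lay above the water libraries, by a log2 value of 0.30 (SE 0.060), whereas INDY and DMSO libraries overlapped (0.10, SE 0.060). Without the libraries set apart, these values of TWIST2 were 0.28 and 0.15. The identifier of TWIST2 in the table is absent from GENCODE 44, so the gene was placed by its symbol. ZEB1, a zinc-finger homeobox factor, was at 58.4 ± 1.39, 54.0 ± 1.45, 58.8 ± 3.30 and 57.3 ± 2.98 CPM with water, harmine, DMSO and INDY. Its log2 values were -0.11 (SE 0.042) and -0.04 (SE 0.042), and both were -0.09 without the libraries set apart. Summed over the 6 factors, the level was 83.6 ± 1.72 CPM in water and 90.7 ± 0.557 in harmine libraries, and 84.3 ± 2.88 in DMSO and 84.4 ± 2.57 in INDY libraries, and ZEB1 made up most of it in every group.

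Fibronectin had the same directions as SNAI2. FN1 (ENSG00000115414; chr2:215360440-215436073, minus strand, 46 exons in the reference transcript) measured 898, 1184, 1151 and 802 CPM with water and 1849, 1982, 1835 and 1845 with harmine. With DMSO it measured 819.8, 932, 945 and 862 CPM, and with INDY 314, 348, 259.7 and 319. All 4 harmine libraries exceeded all water libraries, and all 4 INDY libraries lay below all DMSO libraries. The means were 1009 ± 188 and 1878 ± 69.5 CPM for water and harmine, and 889.7 ± 59.3 and 310.3 ± 36.7 for DMSO and INDY. The fitted fold was 1.86-fold higher with harmine (log2 0.90, SE 0.10) and 2.87-fold lower with INDY (log2 -1.52, SE 0.10). As a share of all counts, FN1 took 0.103% in water and 0.185% in harmine libraries, and 0.090% in DMSO and 0.031% in INDY libraries. The wide spread with water came with the libraries that lay apart, since libraries 1 and 4 held less FN1 than libraries 2 and 3. Without the 4 libraries set apart the log2 values were 0.68 with harmine and -1.41 with INDY. That fit kept the water libraries with more FN1, and a fit that kept libraries 1 and 4 instead was not run.

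N-cadherin is the adhesion molecule of mesenchymal and neural cells, and its gene had the smallest spread between control libraries, relative to its mean, of the 8 fitted genes. CDH2 measured 140.9, 138.5, 139.4 and 140.4 CPM with water and 175.9, 172.2, 162.2 and 172.4 with harmine. It measured 141.4, 140.1, 144.0 and 139.5 CPM with DMSO and 99.8, 92.9, 96.2 and 98.4 with INDY. The libraries of treated cells stood clear of their controls, above them with harmine (log2 0.29, SE 0.029, 1.22-fold) and below them with INDY (log2 -0.55, SE 0.029, 1.46-fold lower), and the log2 values without the libraries set apart were 0.29 and -0.56. SNAI2, FN1 and CDH2 were each higher with harmine and lower with INDY.

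Vimentin was higher with both compounds. VIM measured 1896, 2028, 2019 and 1899 CPM with water and 2233, 2293, 2285 and 2327 with harmine. It measured 2173, 2319.8, 2265 and 2300.1 CPM with DMSO and 2629, 2886, 2597 and 2887 with INDY. Treated libraries lay above their controls in both pairs, by log2 values of 0.22 (SE 0.037) and 0.28 (SE 0.037), and VIM took 0.199% to 0.272% of all counts across the group means. The INDY libraries 1 and 3, which lay apart, held less VIM than INDY libraries 2 and 4. Without the libraries set apart the log2 values were 0.17 and 0.35.

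E-cadherin was close to the detection limit. CDH1 counts were 22 to 29 per library with water, 3 to 8 with harmine, 6 to 15 with DMSO and 1 to 10 with INDY. CDH1 therefore entered the fit through its water libraries, where it is highest. The group means were 0.421 ± 0.0996 CPM with water and 0.108 ± 0.0482 with harmine, with no overlap, and 0.220 ± 0.0671 with DMSO and 0.0988 ± 0.0578 with INDY, with overlap. The log2 values were -1.95 (SE 0.38) and -1.09 (SE 0.41), or -1.63 with harmine and -1.63 with INDY without the libraries set apart. Summed over 6 defining epithelial markers, CDH1 among them, the level was 60.3 to 79.0 CPM with water, 30.3 to 33.4 with harmine, 51.1 to 62.0 with DMSO and 36.4 to 48.4 with INDY, most of it the tight-junction claudin CLDN4, and 3 of the 6 were tested.

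In all, the 8 fitted genes held 5 that were higher and 3 that were lower in every harmine library than in every water library, while 55.1% of all tested genes did not overlap in that contrast. With INDY 5 of the 8 did not overlap, 2 higher and 3 lower, against 67.5% of all genes. TWIST2, ZEB1 and CDH1 overlapped. These counts describe genes picked from the same contrasts, and CDH1, 1 of the 3 lower with harmine, had entered the fit through its water libraries. Of all 20446 genes, 6.26% were called higher with harmine as well as lower with INDY, and 4.55% the reverse.

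**Figure D2:**
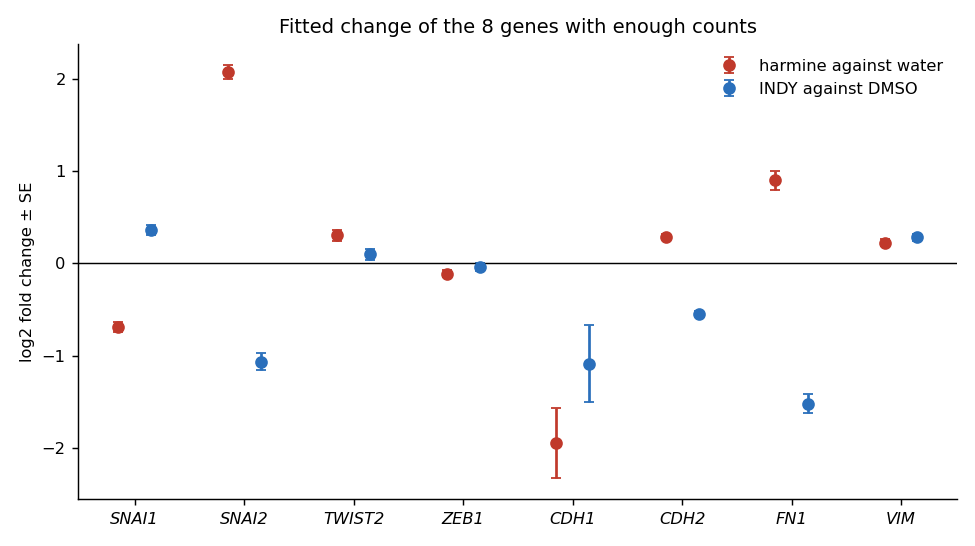
Fitted log2 fold change of the 8 genes with enough counts, harmine against water in red and INDY against DMSO in blue, with bars of 1 SE on each side. SNAI2, FN1 and CDH2 lie above 0 with harmine and below 0 with INDY, SNAI1 does the opposite, and CDH1 has the widest bars.

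The vehicles were compared with each other. This contrast did not itself choose the genes, but its libraries are the controls of the contrasts that did. Against water, DMSO came with a higher level of VIM (log2 0.21, SE 0.037, edgeR adjusted p = 0.00157), and the DMSO libraries all lay above the water libraries. Of all genes tested, 4.29% passed the threshold in this contrast. No other of the 8 genes passed it. Only VIM and CDH1 did not overlap, 1 higher and 1 lower, where 19.9% of all genes did not overlap and 9.76% did so with the higher level in DMSO. CDH1 had a log2 value of -0.91 (SE 0.33, adjusted p = 0.0815) without overlap, and FN1 of -0.18 (SE 0.10, adjusted p = 0.26) with overlap. The value of CDH1 is a description, since CDH1 entered the fit through the water libraries, where it is highest. SNAI1, SNAI2, TWIST2, ZEB1 and CDH2 had log2 values between -0.09 and 0.11 with adjusted p from 0.252 to 0.887. Once the libraries that lay apart were left out, FN1 also passed, with a log2 value of -0.39 (edgeR adjusted p = 6.5e-05). That fit kept only water libraries 2 and 3, at 1184 and 1151 CPM of FN1, and dropped water libraries 1 and 4, at 898 and 802 CPM. The libraries were dropped after the data were seen. In the same fit VIM stood at 0.16 and CDH1 at -0.60. The mean level of VIM was 1961 ± 72.7 CPM with water, 2265 ± 64.9 with DMSO, 2284 ± 38.5 with harmine and 2749.8 ± 159 with INDY.

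Ordered by CPM per kilobase of the reference transcript, a scale on which genes can be compared, vimentin led with 910.3 in water, followed by FN1 with 120.2 and CDH2 with 34.8. ZEB1 followed with 9.83, TWIST2 with 8.36, SNAI1 with 5.83 and SNAI2 with 1.82. CDH1 stood at 0.087, ZEB2 at 0.011 and TWIST1 at 0. With harmine the level of SNAI2 (7.63 CPM per kilobase) stood above that of SNAI1 (3.60), and their libraries did not overlap. TWIST2 and ZEB1 also changed places with harmine, 10.3 against 9.10, and with INDY, 9.68 against 9.65, but their libraries overlapped in both groups, and with the mean length over all annotated transcripts ZEB1 stayed above TWIST2 in every group. With INDY FN1 stood at 37.0 and CDH2 at 24.1 CPM per kilobase, closer to each other than in any other group.

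**Figure D3:**
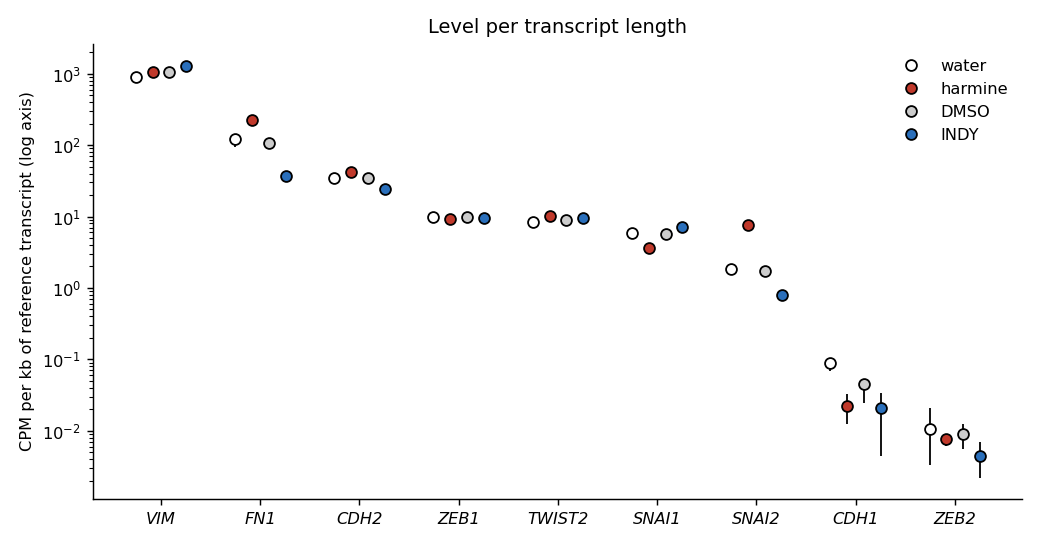
Mean level of 9 genes per transcript length in CPM per kilobase on a log axis, ordered by the water group, with vertical lines from the lowest to the highest library of each group of 4. TWIST1, with 0 counts, is not drawn. The levels run from 0.011 (ZEB2) to 910.3 (VIM) in water, and the harmine point of SNAI2 (7.63) stands above that of SNAI1 (3.60).

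Promoter sequence from RefSeq was at hand for 6 of the 10 genes, in 13 promoters. SNAI1, SNAI2, TWIST1 and CDH1 had no entry. The 250 bases before the start site are printed for FN1 and CDH2, which shared the directions of SNAI2, and for VIM, which was higher with both compounds (GRCh38.p14; FN1 chr2:215436069-215436318, minus strand; CDH2 chr18:28177131-28177380, minus strand; VIM chr10:17227991-17228240, plus strand). Capitals mark matches on either strand to the cyclic AMP response element TGACGTCA, the CCAAT box, the E-box of SNAI and ZEB factors (CACCTG) and the GC box (GGGCGG), some of which overlap in FN1.
FN1: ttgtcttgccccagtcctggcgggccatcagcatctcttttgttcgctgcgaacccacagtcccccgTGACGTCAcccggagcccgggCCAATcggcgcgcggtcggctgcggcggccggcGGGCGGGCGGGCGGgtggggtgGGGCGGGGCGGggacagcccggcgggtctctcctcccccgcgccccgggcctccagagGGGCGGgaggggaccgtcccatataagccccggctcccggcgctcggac
CDH2: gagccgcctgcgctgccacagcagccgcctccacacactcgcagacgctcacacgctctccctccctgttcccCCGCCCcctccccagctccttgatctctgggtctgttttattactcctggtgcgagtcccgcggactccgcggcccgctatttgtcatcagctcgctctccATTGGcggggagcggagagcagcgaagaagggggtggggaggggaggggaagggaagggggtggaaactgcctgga
VIM: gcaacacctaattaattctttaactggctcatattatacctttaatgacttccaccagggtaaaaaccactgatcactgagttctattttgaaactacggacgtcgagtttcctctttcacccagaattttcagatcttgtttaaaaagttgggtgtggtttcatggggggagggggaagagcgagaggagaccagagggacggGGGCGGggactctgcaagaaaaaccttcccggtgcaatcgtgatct
The FN1 promoter held the palindrome TGACGTCA, which starts 183 bases before the start site (chr2:215436244-215436251) and was found in 1.65% of 35116 promoters of the same length. A CCAAT box lies 162 bases before the start. The printed CDH2 promoter held a CCAAT box 76 bases before its start and no TGACGTCA. CDH2 has a second start site (chr18:28036642-28036891, not printed), with a CCAAT box 67 bases before it and no TGACGTCA or GC box. CCAAT was present in 32% of all promoters. The printed stretch of FN1 held 6 GC boxes, those of CDH2 and VIM 1 each, and 42.6% of promoters held at least 1. None of the 3 printed stretches held CACCTG, which 17.5% of promoters did. ZEB1 had 7 start sites, the first with 1 CACCTG match and the third with 2. A match is a stretch of letters and not a measured site.

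Genes annotated on the opposite strand can share reads with these genes if strand was not used in counting, and the strand setting of Salmon is not given in the sources used here, although the library kit keeps strand. ZEB1-AS1 was at 9.89 CPM with water and 11.4 with harmine, and at 10.2 with DMSO and 11.2 with INDY, and passed in neither contrast. VIM-AS1, which overlaps VIM, was at 11.1 and 9.49 CPM with water and harmine (adjusted p = 0.0278) and fell from 9.50 CPM with DMSO to 5.44 with INDY (log2 -0.81, edgeR adjusted p = 1.6e-07), while VIM was higher. SNAI3-AS1, beside the third SNAI gene, fell with INDY by 1.31 on the log2 scale. ZEB2-AS1 was at no more than 0.04 CPM on average in any group, and the transcripts divergent from FN1 and TWIST1 had 0 counts. SNAI2 is overlapped on the opposite strand by the lncRNA ENSG00000288761, and their starts lie 237 bp apart. That lncRNA was absent, by identifier, from the genes counted, so its level could not be read.

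The surrounding pathway was read from 7 lists with 158 genes, of which 154 were in the table and 143 were tested. The lists were drawn up with earlier results of these data known, so their counts and medians are a description. With harmine 40 rose and 45 fell, against 24.9% and 22.8% of all genes tested (47.7% in either direction), and the median log2 fold change was -0.04, against 0.02 for all genes. With INDY 36 rose and 65 fell, against 33.2% and 33.4% of all genes (66.6% in either direction), with a median of -0.16, against -0.01. The effects of the compounds differed from each other in 93 of the 143, 61 with the higher effect and 32 with the lower effect for harmine, where 54.5% of all genes differed and 28.1% had the higher effect for harmine. Called in opposite directions were 24 of the 143 genes, against 10.8% of all genes. Higher with harmine and lower with INDY were 15 of the 143, against 6.26% of all genes.

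**Figure D4:**
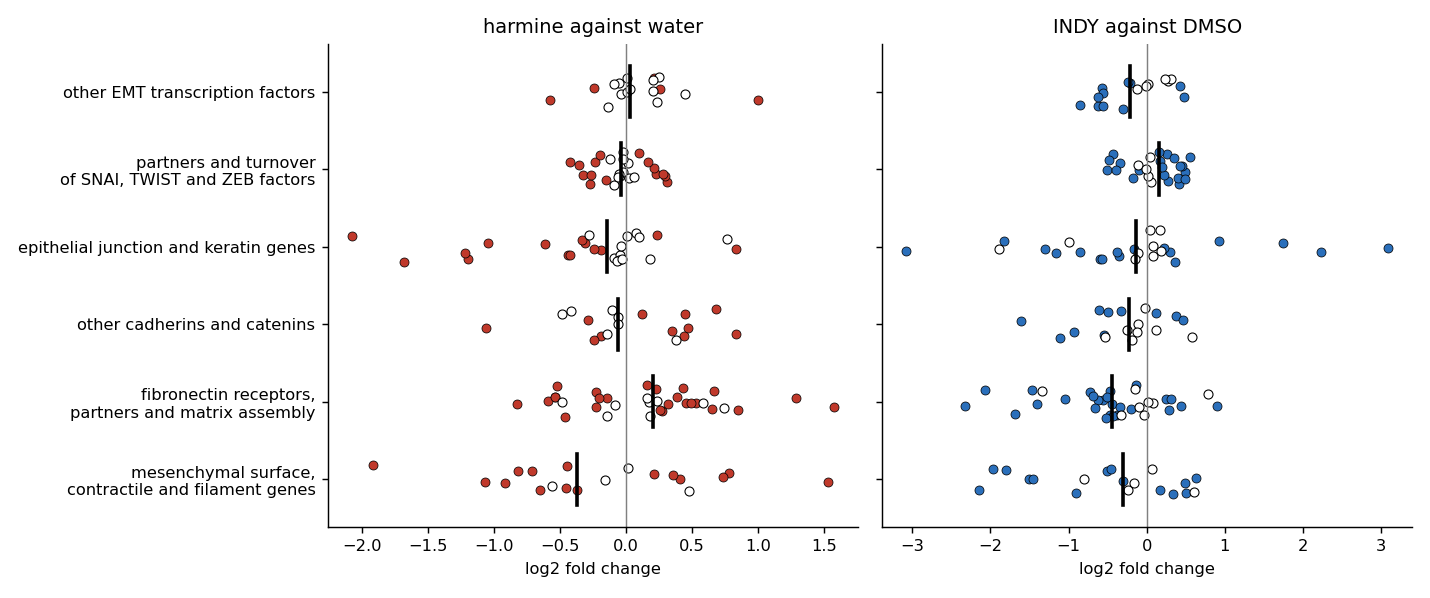
Log2 fold change of each tested gene of 6 pathway lists, harmine against water on the left and INDY against DMSO on the right, with separate horizontal scales. Filled points passed an adjusted p of 0.01, open points did not, and black bars mark list medians. The fibronectin list has its median at 0.21 with harmine and -0.44 with INDY.

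Fibronectin receptors, binding partners and matrix-assembly genes formed the longest list. Of its 34 tested genes 15 rose and 10 fell with harmine, with a median log2 value of 0.21, and 5 rose and 21 fell with INDY, with a median of -0.44. THBS1 (thrombospondin-1, a matrix glycoprotein) rose with harmine, from 170.5 ± 6.71 to 417 ± 19.8 CPM (log2 1.29, SE 0.0365, edgeR adjusted p = 1.13e-14), and fell with INDY, from 139 ± 2.82 to 88.1 ± 3.05 CPM (log2 -0.66, SE 0.0371, adjusted p = 1.11e-11). TGFBI, a secreted protein that binds integrins and collagen, rose from 333 ± 28.7 to 599.8 ± 9.39 CPM (log2 0.85) and fell from 332 ± 6.0 to 104 ± 21.1 (log2 -1.68). The difference between its effects with the compounds was 2.53 on the log2 scale (SE 0.14, edgeR adjusted p = 2.26e-11). In total, where 6.26% of all genes rose with harmine and fell with INDY, 8 genes of the list did so. Beside THBS1 and TGFBI these were ITGA4, TNS1, VCL, TNC, SPARC and LOXL2, which are named for completeness after their values were seen. The focal-adhesion adaptor PXN alone did the reverse, with log2 values of -0.22 and 0.43. A further 8 fell with both compounds, as did 12% of all genes, and 4 rose with both, as did 12.1% of all genes.

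Integrin subunits moved in several directions. ITGB3, the partner of the alpha-v chain in a fibronectin and vitronectin receptor, rose from 17.5 ± 1.48 to 52.2 ± 1.99 CPM with harmine (log2 1.58, SE 0.0616, edgeR adjusted p = 5.07e-13) and was at 13.9 ± 0.876 and 14.7 ± 1.19 with DMSO and INDY (adjusted p = 0.258). ITGB5, another partner of alpha-v, fell from 673 ± 6.34 to 160.4 ± 10.8 CPM with INDY (log2 -2.07, SE 0.036, adjusted p = 1.39e-18) and from 678 to 579.6 CPM with harmine (log2 -0.23). ITGB6 fell with INDY from 2.50 ± 0.428 to 0.494 ± 0.215 CPM (log2 -2.33) and had a log2 value of -0.49 with harmine (adjusted p = 0.030). The alpha-v chain itself (ITGAV) fell with both, by 0.54 and 0.47 on the log2 scale, and ITGA5, the alpha chain of the main fibronectin receptor, fell by 0.52 and 0.44. ITGB1 fell with INDY from 1906 to 1148 CPM (log2 -0.73) and was not called with harmine (log2 -0.09, edgeR adjusted p = 0.0131). By contrast, ITGA3 rose with both, by 0.53 and 0.25 on the log2 scale. ITGAV, ITGA5, ITGB1 and ITGA3 were named after their values were seen. THBS1 and ITGB3 were also lower with DMSO than with water, by log2 values of -0.29 and -0.33.

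**Figure D5:**
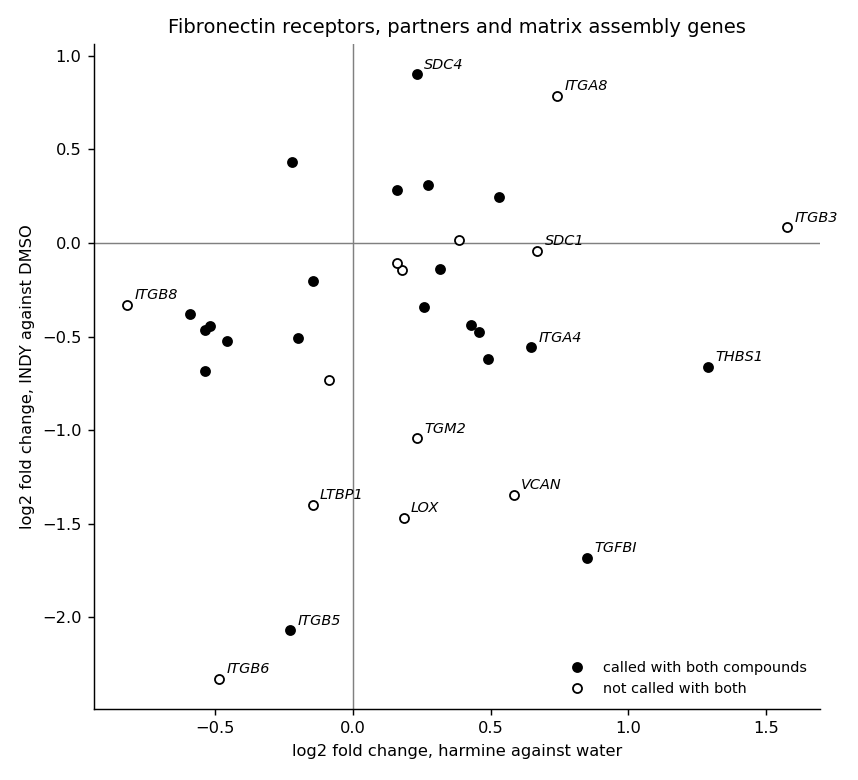
Log2 fold change of each of the 34 tested genes of the fibronectin list with harmine (horizontal axis) and with INDY (vertical axis). Filled points passed the test with both compounds, and genes with a change over 0.6 with harmine or over 0.8 with INDY in either direction carry their names. To the lower right lie TGFBI (0.85, -1.68) and THBS1 (1.29, -0.66), and ITGB5 and ITGB6 lie at the bottom left.

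Among 19 tested mesenchymal surface, contractile and filament genes 6 rose and 9 fell with harmine (median -0.37), and 5 rose and 9 fell with INDY (median -0.30). TAGLN (transgelin, an actin-binding protein of smooth muscle) rose with harmine, from 62.4 ± 2.39 to 107 ± 4.68 CPM, and fell with INDY, from 49.8 ± 3.87 to 11.3 ± 0.796 CPM (log2 0.78 and -2.14, edgeR adjusted p = 2.65e-10 and 5.9e-16). ACTA2, smooth-muscle actin, rose with both, from 10.3 to 29.6 CPM with harmine (log2 1.53) and from 10.5 to 16.3 with INDY (log2 0.63). FAP, a surface protease of activated fibroblasts, fell with both, by 1.07 and 0.91. The filament gene DES, of muscle, fell with harmine from 0.641 to 0.169 CPM, whereas SYNM and NT5E (the surface marker CD73) had log2 values of -1.96 and -1.80 with INDY, both passing and both from below 1.5 CPM. TAGLN and FAP were also lower with DMSO than with water, by log2 values of -0.32 and -0.48.

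Epithelial junction and keratin genes gave 2 rises and 12 falls of 26 tested with harmine (median -0.14) and 7 rises and 10 falls with INDY (median -0.13). The same list had a median of -0.15 in DMSO against water, against -0.0016 for all genes, with 0 rises and 3 falls. DSP, the desmosomal plaque protein desmoplakin, fell with both compounds, from 1.1 ± 0.0983 to 0.257 ± 0.0942 CPM (log2 -2.07) and from 0.655 ± 0.0896 to 0.0786 ± 0.0476 CPM (log2 -3.08). TJP3, a tight-junction scaffold, fell with both, by 1.22 with harmine and 0.57 with INDY on the log2 scale. MARVELD2 (tricellulin, of tricellular junctions) rose from 0.346 ± 0.0219 to 2.96 ± 0.891 CPM with INDY (log2 3.09, SE 0.23, edgeR adjusted p = 6.03e-10) and was at 0.311 and 0.356 CPM with water and harmine. F11R (the junctional adhesion molecule JAM-A) rose from 5.69 ± 0.350 to 26.8 ± 1.48 CPM with INDY (log2 2.23) and from 5.63 ± 0.565 to 10.0 ± 0.837 with harmine (log2 0.83), a difference of -1.40 (SE 0.10, adjusted p = 1.75e-09).

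Of 18 other cadherins and catenins 7 rose and 4 fell with harmine (median -0.06), and 3 rose and 7 fell with INDY (median -0.22). CDH11, the cadherin of osteoblasts and other mesenchymal cells, moved as CDH2 did, from 20.9 ± 0.208 to 33.5 ± 2.08 CPM with harmine (log2 0.68, edgeR adjusted p = 1.08e-09) and from 18.2 ± 1.16 to 12.9 ± 0.436 with INDY (log2 -0.49, adjusted p = 8.11e-08). CDH3 (P-cadherin) fell with both, by 1.06 and 0.93 on the log2 scale, from below 2 CPM. CDH13, which is anchored to the membrane by lipid and has no cytoplasmic tail, fell with INDY from 104 to 48.3 CPM (log2 -1.11) and stood at 127 and 118 CPM with water and harmine (adjusted p = 0.128). CDH15 fell with INDY by 1.61 and CDH10 rose with harmine by 0.83 on the log2 scale, both at about 1 CPM or less in treated cells.

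The other transcription factors tied to the transition gave 3 rises and 2 falls of 17 tested with harmine (median 0.03), and 2 rises and 9 falls with INDY (median -0.21). HMGA2, an AT-hook chromatin protein that acts upstream of SNAI genes, rose from 83.5 ± 11.2 to 167 ± 4.58 CPM with harmine (log2 1.00, SE 0.095, edgeR adjusted p = 4.7e-08) and stood at 96.1 and 95.7 CPM with DMSO and INDY. SOX4 and SOX9 both rose with harmine and fell with INDY, with log2 values of 0.21 and -0.62 for SOX4 and of 0.26 and -0.21 for SOX9. ID1, which sequesters helix-loop-helix factors, fell with both, by 0.58 and 0.62, and ID2 fell with INDY by 0.85. The helix-loop-helix factor TCF4 fell with both, by 0.24 with harmine and 0.56 with INDY on the log2 scale. Against water, DMSO came with lower SOX4 and TCF4 and higher ID1.

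Cofactors and ubiquitin-pathway genes that work with SNAI, TWIST and ZEB proteins changed by small amounts. Of 26 tested 7 rose and 8 fell with harmine (median -0.04) and 14 rose and 7 fell with INDY (median 0.16), and none reached a 1.5-fold change with either compound. RCOR1 and KAT2B, a corepressor and a histone acetyltransferase, fell with harmine and rose with INDY, with log2 values of -0.43 and 0.35 for RCOR1 and of -0.33 and 0.43 for KAT2B. The arginine methyltransferase PRMT5 fell with both, by 0.36 and 0.48. CTBP1 and KDM1A, corepressor components recruited by ZEB and SNAI factors, rose with INDY by 0.56 and 0.49 (CTBP1 also with harmine, by 0.23), while the Polycomb subunit SUZ12 fell by 0.51 on the log2 scale.

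The genes with the pattern most like SNAI2 over the 16 libraries, among 13180 genes with a mean log2 CPM of at least 1, were FHL2, TPM4, PARD6G, MOSMO and THBS1, with Pearson's r of log2 CPM from 0.988 to 0.994. TPM4, an actin-binding tropomyosin, was at 357 ± 7.17, 578 ± 11.6, 347 ± 3.59 and 266 ± 7.30 CPM with water, harmine, DMSO and INDY. Those most like FN1 were ARHGEF37, COL8A1, PDLIM2, SPNS2 and ROR1, with r from 0.991 to 0.997. ROR1, a receptor for WNT5A, was at 52.2 ± 4.08, 107 ± 0.987, 44.8 ± 0.812 and 18.3 ± 2.68 CPM in the same order. The libraries fall into 4 groups, so these values mostly rank how alike the group means are. No gene was shared by the leading 5 of SNAI2 and of FN1, while r between SNAI2 and FN1 themselves was 0.909.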

How the data were processed

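Poly(A) RNA of 16 quiescent U2OS libraries was sequenced with a stranded kit. The values are deposited estimated counts, computed by the authors with Salmon 1.1 (selective alignment, GC and sequence bias correction, GENCODE 37 transcripts, GRCh38 decoy) and summed to genes with tximport. The submitters' processing notes also name edgeR 3.28.1. Estimated counts were rounded to whole numbers, and 20446 genes passing filterByExpr were tested with edgeR 4.0.16 under R 4.3.3 (TMM, glmQLFit, glmQLFTest, Benjamini-Hochberg adjusted p under 0.01) in 1 fit of all 4 groups. The biological coefficient of variation was 0.0561. CPM are TMM-normalized. Lengths and coordinates came from GENCODE 44, with 9 of the 10 genes matched by identifier. No member shared a stretch of 100 nt with another gene.

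Members and lists were chosen with earlier results of these data known. Named are all 10 members, the 3 passing genes of each list that changed most with each compound, every passing gene where 5 or fewer passed, the 5 genes most like SNAI2 and FN1, and marker genes, except 1 gene that is not reported here. The fit was tested on simulated data. Alternatives were DESeq2 1.42.0, limma voom (limma 3.58.1), upper-quartile factors, other filters, thresholds and prior counts, 8-library fits, a replicate block and leaving out libraries.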

Additional observations from a re-analysis of the deposited data

Results flagged for a closer look

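Among the 36 combinations of a gene and a group of 4 libraries that had any counts, 2 had a library far from the other 3, where chance alone flags about 1 in 20. CDH1 was at 0.119 CPM in DMSO replicate 2 and at 0.244 to 0.258 CPM in the other DMSO libraries, all from 15 counts or fewer. FN1 was at 1982 CPM in harmine replicate 2 and at 1835 to 1849 CPM in the other harmine libraries. The 24 pathway genes that passed in opposite directions with harmine and INDY, 15 of them higher with harmine, all passed the test of the difference too. Genes called in opposite directions in the same fit are nearly bound to pass that test, so it adds no separate evidence.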

How the results depend on the processing

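No value changed direction past its test under any alternative. Requiring a change of at least 1.5-fold left 12 pathway genes up and 15 down with harmine, 6 up and 31 down with INDY, 40 up and 17 down in the difference between the effects, and 0 of the 8 members in DMSO against water. Leaving out water libraries 1 and 4 and INDY libraries 1 and 3 gave a log2 value of FN1 with harmine of 0.68, and 2 members, FN1 and VIM, passed in DMSO against water. The pathway genes were then 42 up and 48 down with harmine and 37 up and 67 down with INDY. Leaving out 1 library at a time gave 2.01 to 2.12 (SNAI2) and 0.80 to 0.97 (FN1) with harmine, and -1.15 to -0.98 and -1.57 to -1.44 with INDY. Over all genes in DMSO against water, DESeq2 called 715 higher and 877 lower, against 323 and 554 with edgeR.

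The replicate numbers did not pair the samples, with correlations of same-numbered deviations between -0.053 and 0.087. With the replicate block, the pathway genes passing with harmine were 40 up and 46 down, and those passing with INDY 37 up and 66 down. CDH1, at 29 counts or fewer in a library, is limited by depth.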
